A study of Mus musculus with 32 samples.

Results

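The genes described are 8 established transcriptional targets of the tumour suppressor p53, namely Cdkn1a, Ccng1, Mdm2, Bbc3, Bax, Trp53inp1, Phlda3 and Eda2r, out of 41388 genes in the count tables. They were taken by name and matched to the tables through their gene IDs, and all 8 were found. The RNA came from whole marrow of the mouse femur, in 32 libraries of 1 mouse each. DTRADQ mice carry a diphtheria toxin receptor switched on by Cre recombinase under the adiponectin promoter (genotype label "DTR flox, ADQ Cre+"), and Con mice are littermates with the same receptor allele but no Cre ("DTR flox, No Cre"). All groups were on a C57BL/6 background and 2 months old, and had 4 mice for each genotype after 0, 1, 2 or 3 daily intraperitoneal injections of 100 ng diphtheria toxin (DT). Cells that the adiponectin promoter does not drive keep no induced receptor, so the toxin is aimed at 1 lineage within a tissue made mostly of blood cells.

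p53 is a transcription factor that is stabilised by DNA damage and other stress, and that binds DNA as a tetramer at paired half-sites. Among its targets are inhibitors of the cell cycle, inducers of cell death and its own ubiquitin ligase MDM2, which closes a negative feedback loop. In bone marrow, where most cells are dividing progenitors or their short-lived offspring, this response is known for removing or arresting damaged blood progenitors.

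The libraries held between 8.97 M and 22.9 M counts (median 14.2 M). Untreated Con replicates 3 and 4 stood apart from the rest. They had the lowest totals, 9.49 M and 8.97 M counts, and their 10 most abundant genes took 37.41% and 50.69% of their counts, against 22.68% and 28.61% in untreated Con replicates 1 and 2. Every comparison with the untreated Con group rests in part on these libraries. The summed level of 6 stromal markers of the adiponectin lineage (Adipoq, Cxcl12, Lepr, Kitl, Ebf3, Foxc1) was 33.8 to 58.1 CPM in DTRADQ libraries on the toxin days, against 382 to 706 CPM in Con libraries on those days. Levels are given in CPM, library-size scaled counts after TMM correction, unless a length scale (RPKM) is named. In such bulk samples, fewer cells of a type and less RNA per cell cannot be told apart.

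Promoter windows (RefSeq, GRCm38.p6, 250 bases before to 50 after a transcript start) were available for 7 of the 8 genes, in 10 windows, and are shown because the genes share a regulator. A p53 site, taken as 2 p53 decamer half-sites 0 to 13 bases apart on either strand, with intact cores and at most 1 mismatch elsewhere, was present in 1 of the 10 windows, that of the upstream Cdkn1a start, and in 0.417% of all 32851 windows. Cdkn1a, at chr17:29090979-29100722 on the plus strand, encodes the cyclin-dependent kinase inhibitor p21. The stretch below is chr17:29090888-29090978, plus strand, with the site in capitals, 51 to 32 bases before the start; its half-sites adjoin and carry 1 mismatch. A second pairing with no mismatch, over 12 spacer bases, shares part of this site.
Cdkn1a: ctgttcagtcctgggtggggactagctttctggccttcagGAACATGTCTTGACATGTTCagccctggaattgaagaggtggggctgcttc

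A single half-site with no mismatch was found in 4 of the 7 genes that had a window, and in 9.55% of all 27025 genes with one. Besides Cdkn1a these were Bax, Mdm2 and Ccng1. Their half-sites are shown in capitals with 10 bases on either side, each read 5′ to 3′ along the minus strand on which the gene lies. They start 201 bases before the start of Bax (chr7:45467080-45467109), 186 bases before that of Mdm2 (chr10:117710925-117710954) and 185 bases before that of Ccng1 (chr11:40755452-40755481). The Bbc3, Phlda3 and Eda2r windows held no match to these letters, and Trp53inp1 had no window. Sequence farther from the starts, introns included, was not searched, so p53 sites of these genes may lie there. Matches to a motif describe the sequence and are not shown to be bound.
Bax: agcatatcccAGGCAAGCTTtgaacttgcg
Mdm2: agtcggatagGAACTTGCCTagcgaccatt
Ccng1: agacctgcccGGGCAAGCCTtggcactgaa

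Per base of transcript the 8 genes spanned a wide range of levels. Bax was the most abundant, with a mean of 68.2 RPKM over the 32 libraries (54.1 to 100 RPKM). Trp53inp1 averaged 12.1 RPKM, Ccng1 9.28 RPKM, Mdm2 7.30 RPKM and Cdkn1a 3.80 RPKM. The ranges over libraries of neighbours in this order overlapped for Trp53inp1 and Ccng1, for Ccng1 and Mdm2, and for Mdm2 and Cdkn1a. Phlda3 and Bbc3 were scarce, at 0.535 and 0.350 RPKM with overlapping ranges, and Eda2r was at 0.027 RPKM. The ratio of the highest to the lowest of the 8 group means was 1.30 for Ccng1, 1.46 for Mdm2, 1.51 for Bax and 1.53 for Cdkn1a, against 1.92 for Bbc3, 2.66 for Trp53inp1 and 4.36 for Phlda3.

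**Figure D1:**
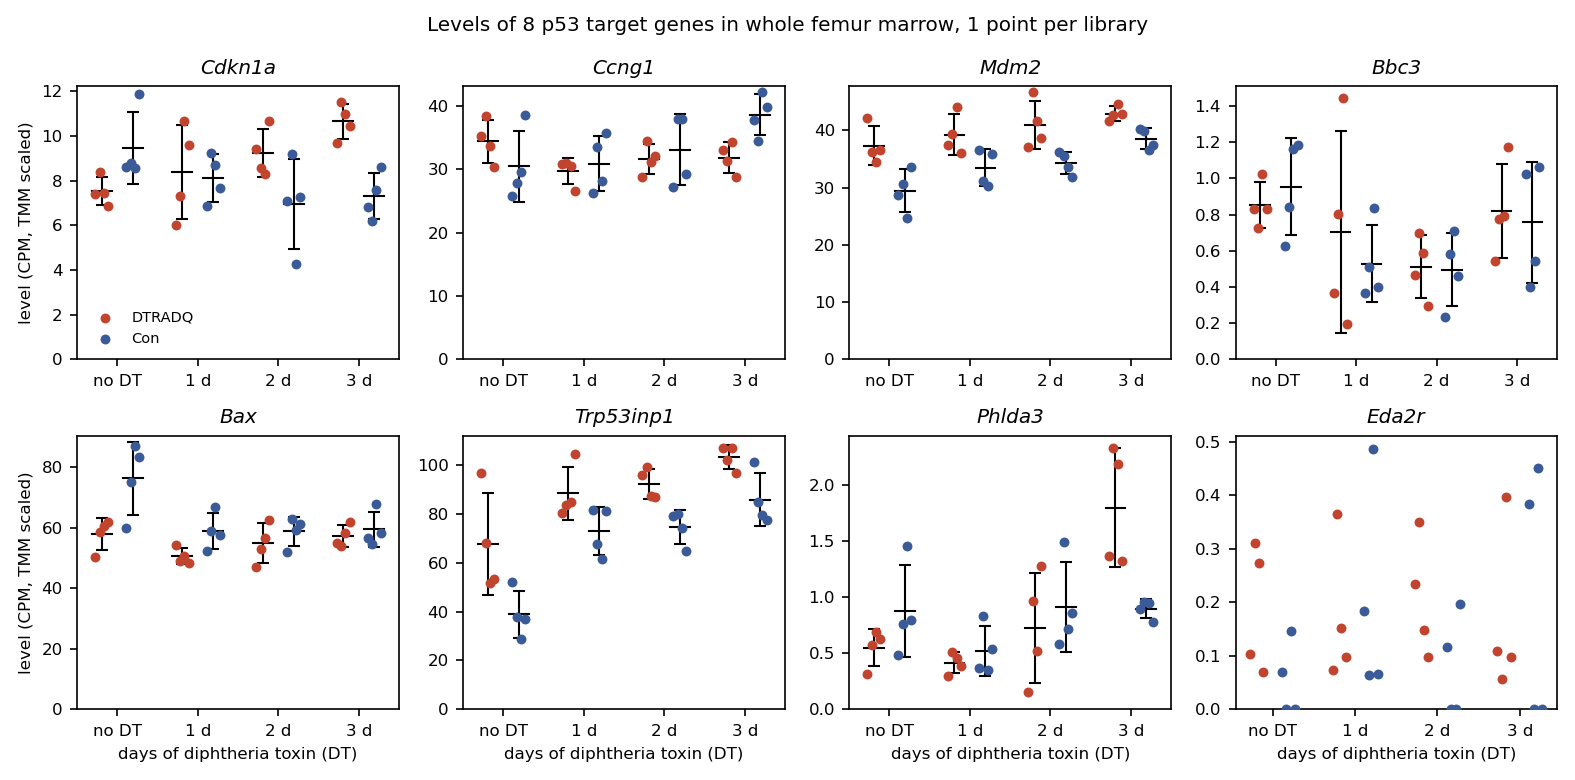
Level of each of the 8 p53 target genes (CPM, linear axis from 0) in each library, by number of days of DT, with DTRADQ in red left of Con in blue; black lines are the group mean and 1 SD (n = 4), left out for Eda2r, whose values rest on 0 to 10 counts. On day 3 all 4 DTRADQ points lie above all 4 Con points for Cdkn1a, Mdm2 and Phlda3, and below them for Ccng1.

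After 3 days of DT, Cdkn1a and Phlda3 were higher in DTRADQ than in Con marrow, and the other 5 tested genes did not pass the threshold. Genes were tested with edgeR's quasi-likelihood test in 1 model of all 32 libraries, and a call needs a Benjamini-Hochberg adjusted p under 0.05 over the 14527 genes that passed the filter on low counts. Of the 8 genes, 7 passed this filter and Eda2r did not. The 2 of 7 called higher stand beside 8.8% of all genes called higher on that day, and 0 of 7 called lower stand beside 14.1%. The median log2 change of the 7 genes was 0.16.

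Cdkn1a had 9.70, 11.5, 11.0 and 10.4 CPM in the day-3 DTRADQ libraries, against 6.83, 6.19, 7.59 and 8.63 CPM in the day-3 Con libraries. Every DTRADQ library was above every Con library, as for 14.9% of all genes tested on that day. The log2 change was 0.54 (SE 0.18, 95% interval 0.18 to 0.90, edgeR adjusted p = 0.0242). The call was lost when Con replicate 1 (adjusted p = 0.0634) or Con replicate 2 (adjusted p = 0.0798) was left out, with log2 changes of 0.51 and 0.47.

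Earlier in the series Cdkn1a did not differ between the genotypes by this test. It had 6.03, 7.30, 10.7 and 9.61 CPM in DTRADQ libraries on day 1, against 6.87, 9.26, 8.70 and 7.65 CPM in Con libraries, and the groups overlapped (log2 change 0.05, adjusted p = 0.932). On day 2 it had 9.43, 8.56, 8.31 and 10.7 CPM in DTRADQ libraries, against 7.07, 9.19, 4.26 and 7.28 CPM in Con libraries. One Con library, replicate 2, reached into the DTRADQ range, and the log2 change of 0.41 (SE 0.18) had an adjusted p of 0.157.

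Without toxin Cdkn1a ran the other way. The DTRADQ libraries had 7.41, 8.39, 7.46 and 6.86 CPM, all below the untreated Con libraries with 8.61, 8.77, 8.57 and 11.9 CPM, as for 5.42% of all genes. The log2 change of -0.31 did not pass (SE 0.19, adjusted p = 0.225). The genotype difference on day 3 was larger than that without toxin by 0.85 on the log2 scale (SE 0.26, edgeR interaction term, adjusted p = 0.0165). This term was called higher for 2 of the 7 genes and lower for 0, beside 9% and 12% of all genes. That of Ccng1 was negative and was called lower in some of the other fits, as given below.

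Phlda3, whose product is a competitive inhibitor of the survival kinase AKT, showed the widest range. It had 1.36, 2.33, 2.18 and 1.32 CPM in day-3 DTRADQ libraries, from 25, 42, 33 and 27 counts, against 0.896, 0.959, 0.948 and 0.777 CPM in day-3 Con libraries, from 21, 24, 21 and 19 counts. The groups did not overlap (14.9% of all genes lay wholly above in DTRADQ on that day), and replicates 2 and 3 were the highest of the DTRADQ libraries. The log2 change was 0.99 (SE 0.35, 95% interval 0.28 to 1.71, edgeR adjusted p = 0.0385). The call was lost without DTRADQ replicate 2 or 3 and without any 1 of the 4 Con libraries, with log2 changes of 0.88 to 1.03 and adjusted p of 0.0597 to 0.111, and equally when genes of low counts were not filtered out (adjusted p = 0.0705).

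Before day 3 Phlda3 rested on 2 to 23 counts a library. It ranged over 0.294 to 0.511 CPM in DTRADQ and 0.348 to 0.830 CPM in Con libraries on day 1, and over 0.156 to 1.27 CPM in DTRADQ and 0.580 to 1.49 CPM in Con libraries on day 2, with overlap on both days. Untreated DTRADQ libraries had 0.311, 0.570, 0.684 and 0.624 CPM, and untreated Con libraries 0.486, 0.759, 1.45 and 0.791 CPM. The interaction term for day 3 against no DT was 1.60 (SE 0.57, adjusted p = 0.0447). Without untreated Con replicates 3 and 4 it was 1.20 with an adjusted p of 0.181, while the same term of Cdkn1a kept its call.

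**Figure D2:**
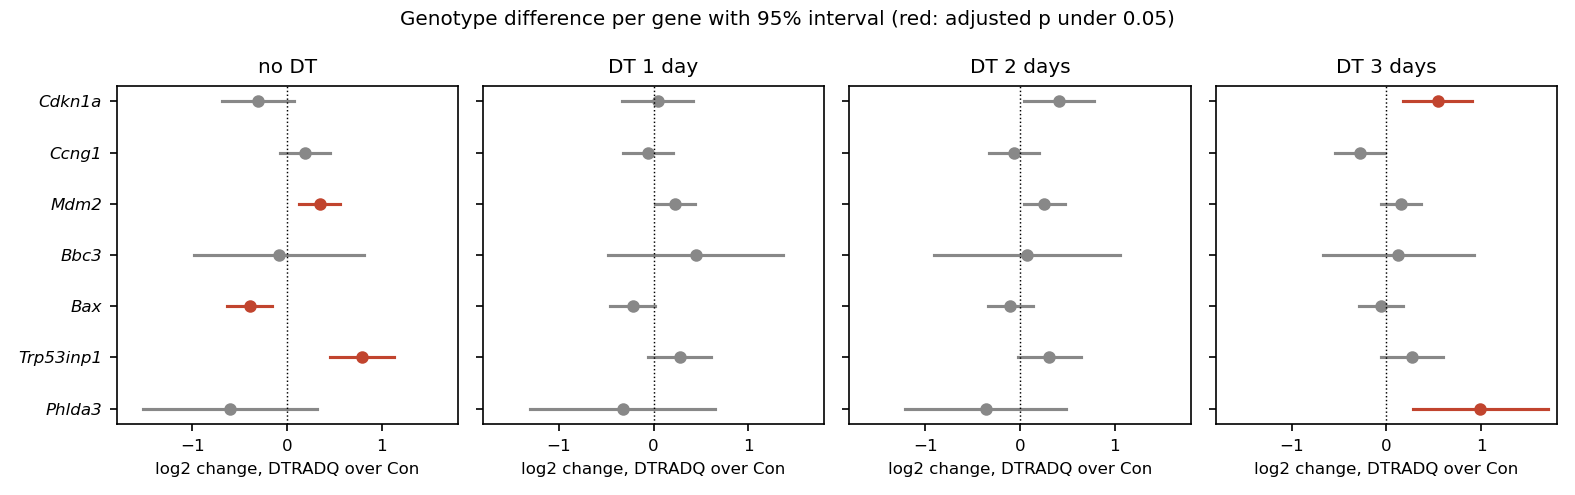
Log2 change of the 7 tested p53 target genes, DTRADQ over Con, without toxin and after 1, 2 and 3 days of DT; points are edgeR estimates, bars 95% intervals, and red marks an adjusted p under 0.05. Red points appear without toxin (Mdm2 and Trp53inp1 higher, Bax lower) and on day 3 (Cdkn1a and Phlda3 higher), and none on days 1 and 2.

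Several lists of marker genes moved on the same day and in the same libraries. On day 3, 11 of 12 cell division genes were lower in DTRADQ marrow, with summed levels of 1328 to 1678 CPM in DTRADQ and 2574 to 3151 CPM in Con libraries. All 9 erythroid genes were lower, with summed levels of 1209 to 1958 CPM in DTRADQ and 4566 to 6052 CPM in Con libraries. All 8 genes of the fibroblast and myofibroblast list were higher, at 441 to 715 CPM in DTRADQ and 90.4 to 105 CPM in Con libraries. Of 7 endothelial genes 6 were higher, at 139.5 to 191 CPM in DTRADQ and 68.5 to 92.6 CPM in Con libraries. Some lists differed before day 3. On day 2, 4 of 8 fibroblast and myofibroblast, 3 of 7 endothelial and 2 of 9 neutrophil genes were called higher, and 0 lower. On that day 0 of the 7 tested p53 targets was called.

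Skeletal muscle genes were also higher on day 3, in 9 of 10 tested, and most of all in DTRADQ replicate 2. Their summed level was 117, 716, 126 and 288 CPM in DTRADQ replicates 1 to 4, against 30.5 to 60.1 CPM in Con libraries. Without replicate 2 the log2 change of Cdkn1a stayed past the threshold and that of Phlda3 was 0.88 with an adjusted p of 0.111. The part of these marker lists in the changes of Cdkn1a and Phlda3 was not tested.

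**Figure D3:**
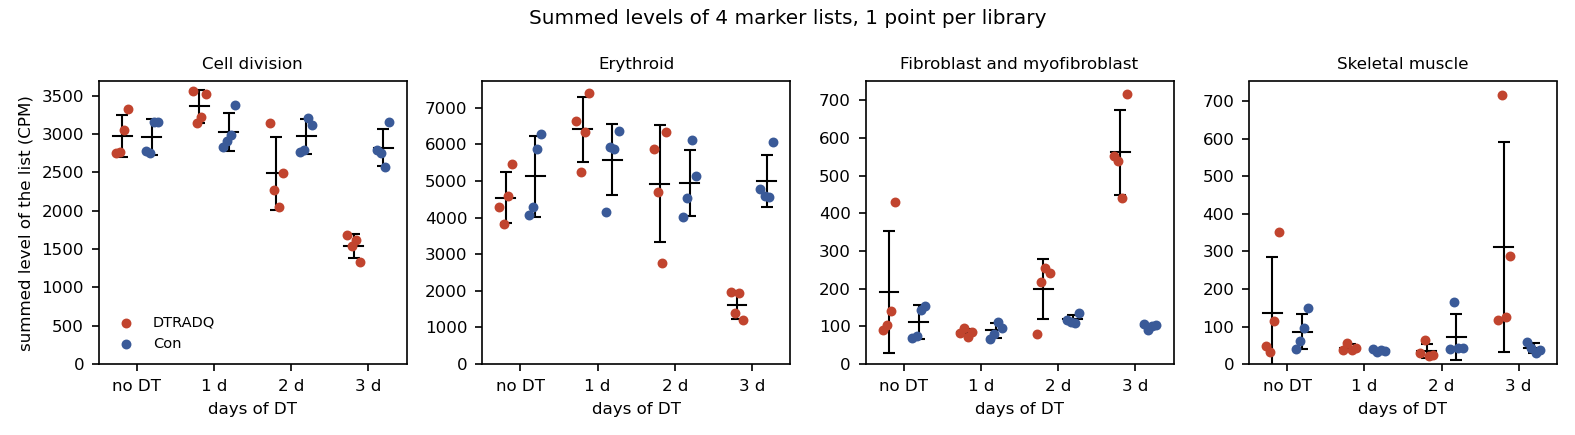
Summed level (CPM, linear axis from 0) of the cell division, erythroid, fibroblast and myofibroblast, and skeletal muscle marker lists in each library by days of DT, with DTRADQ in red left of Con in blue; black lines are the group mean and 1 SD (n = 4). On day 3 the 4 DTRADQ libraries lie below all Con libraries for the first 2 lists (1328 to 1678 against 2574 to 3151 CPM for cell division) and above them for the other 2.

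Mdm2, the ubiquitin ligase that marks p53 for degradation, was higher in DTRADQ marrow without toxin and was not called on any toxin day. Untreated DTRADQ libraries had 42.2, 36.1, 34.4 and 36.5 CPM, against 28.7, 30.7, 24.7 and 33.6 CPM in untreated Con libraries. The groups did not overlap (5.64% of all genes lay wholly above in DTRADQ), with a log2 change of 0.34 (SE 0.11, adjusted p = 0.0157). This call was lost without DTRADQ replicate 1 (adjusted p = 0.073) or Con replicate 3 (adjusted p = 0.0521), and held without Con replicates 3 and 4 together (log2 change 0.34, adjusted p = 0.0456).

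Mdm2 had log2 changes of the same sign on the toxin days, and the interaction terms against no DT were not called (-0.12, -0.09 and -0.19 after 1, 2 and 3 days, adjusted p = 0.661, 0.753 and 0.4). It had 37.5, 39.3, 44.2 and 36.0 CPM in DTRADQ libraries on day 1, against 36.6, 31.1, 30.3 and 35.9 CPM in Con libraries. Day-2 values were 37.2, 46.7, 41.6 and 38.7 CPM in DTRADQ libraries and 36.2, 35.5, 33.6 and 31.9 CPM in Con libraries. On day 3 they were 41.6, 42.7, 44.6 and 42.9 CPM in DTRADQ libraries and 40.3, 39.8, 36.6 and 37.5 CPM in Con libraries. The groups overlapped on day 1 and did not on days 2 and 3, when 10.7% and 14.9% of all genes lay wholly above in DTRADQ, and the log2 changes of 0.23, 0.26 and 0.16 had adjusted p of 0.264, 0.118 and 0.298. On day 2 the change was called with DESeq2 (0.28, adjusted p = 0.0469) and without untreated Con replicates 3 and 4 (0.27, adjusted p = 0.0342).

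Trp53inp1, a stress protein that acts in cell death and autophagy, was higher in untreated DTRADQ marrow by 0.79 on the log2 scale (SE 0.17, adjusted p = 0.000688). Untreated DTRADQ libraries had 96.9, 68.4, 51.7 and 53.5 CPM, against 52.0, 37.6, 28.9 and 37.0 CPM in untreated Con libraries. The groups overlapped by the highest Con library, replicate 1. Without untreated Con replicates 3 and 4 the change was 0.60 with an adjusted p of 0.0288. On day 1 Trp53inp1 ranged over 80.6 to 105 CPM in DTRADQ and 61.7 to 81.9 CPM in Con libraries, with overlap. On day 2 it had 96.0, 99.2, 87.6 and 86.9 CPM in DTRADQ libraries, all above the 79.5, 80.0, 74.5 and 64.7 CPM in Con libraries, as for 10.7% of all genes. On day 3 the ranges of 97.0 to 107 CPM in DTRADQ and 77.8 to 102 CPM in Con libraries overlapped. The log2 changes of 0.28, 0.31 and 0.27 on the 3 toxin days were not called (adjusted p = 0.416, 0.239 and 0.249). The edgeR interaction terms against no DT were negative, at -0.52, -0.49 and -0.53 after 1, 2 and 3 days. They were not called (adjusted p = 0.142, 0.173 and 0.104), with unadjusted p of 0.0331, 0.0446 and 0.0298. Without untreated Con replicate 1 they were called on each day (-0.70, -0.67 and -0.71, adjusted p = 0.018, 0.0256 and 0.014).

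Bax, the pore-forming effector of mitochondrial cell death, was lower in untreated DTRADQ marrow and was not called on any toxin day. The interaction term for day 3 against no DT was not called either (0.34, adjusted p = 0.142). It had 50.2, 58.7, 60.7 and 61.9 CPM in untreated DTRADQ libraries, against 59.9, 75.2, 87.0 and 83.4 CPM in untreated Con libraries. The groups overlapped by the lowest Con library, replicate 1. The log2 change of -0.40 (SE 0.12, adjusted p = 0.0124) was -0.21 with an adjusted p of 0.271 without Con replicates 3 and 4, the 2 highest values, and also missed the threshold without DTRADQ replicate 1 (adjusted p = 0.0616) or Con replicate 3 (adjusted p = 0.102), and with no filter (adjusted p = 0.136). On day 3 Bax ranged over 54.0 to 62.1 CPM in DTRADQ and 54.8 to 68.0 CPM in Con libraries (log2 change -0.05, 95% interval -0.29 to 0.18). In the untreated comparison as a whole, 2 of the 7 genes were called higher and 1 lower, beside 12.7% and 14.4% of all genes. Fitted on the untreated libraries alone, the same changes of Mdm2, Trp53inp1 and Bax had adjusted p of 0.242, 0.127 and 0.259. Marker lists also differed without toxin. Called lower in DTRADQ marrow were 5 of 9 neutrophil genes (summed level 102400 to 118000 CPM in DTRADQ and 114200 to 260500 CPM in Con libraries), 3 of 10 B lineage genes (984 to 1357 CPM in DTRADQ and 1809 to 2231 CPM in Con libraries) and 3 of 8 T and NK genes (233 to 331 CPM in DTRADQ and 392 to 783 CPM in Con libraries). Of 10 monocyte and macrophage genes 4 were lower and 2 higher. Of 10 tested skeletal muscle genes 2 were higher and 0 lower. Their summed level was 33.0 to 351.5 CPM in DTRADQ and 41.0 to 148 CPM in Con libraries, highest in DTRADQ replicate 4. The fibroblast and myofibroblast list was also highest in that library, at 429.8 CPM, against 70.5 to 154.8 CPM in Con libraries. The part of these lists in the untreated changes of Mdm2, Trp53inp1 and Bax was not tested.

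On days 1 and 2 the count of these genes called between the genotypes was 0 of 7, beside 3.9% of all genes on day 1 and 8.52% on day 2 (edgeR). At an unadjusted p under 0.05 there were 1 (Mdm2) and 2 (Cdkn1a and Mdm2), and DESeq2 called 0 and 1. The interaction term was called for 0 of the 7 on both days, beside 12.3% and 11.1% of all genes, with 1 and 2 at an unadjusted p under 0.05 and 0 and 1 by DESeq2. For Cdkn1a on day 2 this term was 0.72 (SE 0.26) with an adjusted p of 0.0701, and 0.74 with an adjusted p of 0.0397 by DESeq2. The stromal markers were by then already low, with all 6 called on each toxin day.

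Ccng1 encodes cyclin G1, which takes part in the feedback on p53 through MDM2. On day 3 it had 33.1, 31.2, 34.3 and 28.7 CPM in DTRADQ libraries, against 37.8, 34.5, 42.3 and 39.8 CPM in Con libraries. All DTRADQ libraries were below all Con libraries, as for 20.4% of all genes, yet the log2 change of -0.28 (SE 0.13) had an adjusted p of 0.115. A fit on the day-3 libraries alone called it (-0.28, adjusted p = 0.0298), and called Trp53inp1 higher with it (0.26, adjusted p = 0.0429). On the other days its groups overlapped, with log2 changes of 0.19, -0.05 and -0.06 after 0, 1 and 2 days of DT. The edgeR interaction term for day 3 against no DT was -0.465 (SE 0.18, adjusted p = 0.0674). It was called lower without untreated Con replicates 3 and 4 (-0.62, adjusted p = 0.0113). The same held without untreated Con replicate 4 alone (-0.58, adjusted p = 0.0123) or untreated DTRADQ replicate 4 (-0.52, adjusted p = 0.049).

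Bbc3, which encodes the cell death inducer PUMA, and Eda2r, a receptor of the tumour necrosis factor family, were too low for a firm statement. Bbc3 had 2 to 26 counts a library, ranging over 0.545 to 1.17 CPM in DTRADQ and 0.400 to 1.06 CPM in Con libraries on day 3, and its 95% interval of the log2 change on that day ran from -0.67 to 0.92. Eda2r had 0 to 10 counts a library, was at 0 in 6 libraries and at or under 3 counts in 24. Its counts summed to 43 over the 16 DTRADQ libraries and to 38 over the 16 Con libraries. The sums in DTRADQ and Con libraries were 13 and 2 without toxin and 9 and 12 on day 1. They were 10 and 5 on day 2 and 11 and 19 on day 3. Its differences were not tested.

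Set against the untreated mice of their own genotype, the genes moved differently over the toxin days. In DTRADQ marrow 3 of 7 were higher on day 3, beside 12.5% of all genes. These were Phlda3 (log2 change 1.72, SE 0.39, adjusted p = 0.00114), Trp53inp1 (0.61, SE 0.16, adjusted p = 0.00493) and Cdkn1a (0.50, SE 0.18, adjusted p = 0.0337). None was called on day 1 or day 2, beside 5.48% and 9.11% of all genes. Trp53inp1 alone had an unadjusted p under 0.05 on each of these days, and DESeq2 called 0 of the genes on day 1 and 1 on day 2. The call of Cdkn1a was lost without untreated DTRADQ replicate 1, 3 or 4 or day-3 DTRADQ replicate 2 or 4, with log2 changes of 0.46 to 0.51 and adjusted p of 0.0555 to 0.0944, and with no filter (0.52, adjusted p = 0.0507).

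In Con marrow, whose cells lack the induced receptor, Trp53inp1 was higher than without toxin on each day, by 0.91, 0.93 and 1.14 on the log2 scale after 1, 2 and 3 days (adjusted p = 9.77e-05, 7.75e-05 and 5.7e-06). Without untreated Con replicates 3 and 4 these changes were 0.72, 0.75 and 0.95, all still called. Bax was lower on each day (-0.37, -0.37 and -0.36, adjusted p = 0.0149, 0.0176 and 0.0203), and was not called on any of them without those libraries (-0.18, -0.18 and -0.17). On day 3 Mdm2 (0.39, adjusted p = 0.00518) and Ccng1 (0.35, adjusted p = 0.0386) were higher as well. In an edgeR fit of only the groups compared, both calls were lost (0.42 and 0.38, adjusted p = 0.153 and 0.226). The Ccng1 call was also lost without untreated Con replicate 1, 2 or 3 or day-3 Con replicate 1, 3 or 4 (adjusted p = 0.053 to 0.104). The calls stood beside 16%, 13.8% and 14.8% of all genes called higher and 17.4%, 14.4% and 15.4% called lower after 1, 2 and 3 days. All comparisons within a genotype share that genotype's untreated libraries. Day 3 and the sequencing lane label cannot be told apart in them, since the 8 day-3 libraries carry another lane label than the other 24, which does not touch comparisons of genotypes on 1 day.

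Over the 8 group means of log2 CPM, Mdm2 and Trp53inp1 varied together (Pearson r = 0.911) and Bax ran against both (r = -0.784 with Mdm2 and -0.865 with Trp53inp1). Without the untreated Con mean, over 7 group means, these were 0.817, -0.416 and -0.374. Cdkn1a had r = 0.238 with Mdm2 and 0.048 with Trp53inp1 over the 8 group means, and 0.749 and 0.751 over the 7. The points share the scaling of the libraries and the untreated groups, and the values are a description. By the same measure over 8 group means, the genes most like Cdkn1a were Cttnbp2nl (r = 0.966), Ptk2b (0.95) and Srxn1 (0.944), and those most like Phlda3 were Batf (0.946), Vgll4 (0.946) and Tfe3 (0.938).

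A list of 31 further p53 targets, of which 30 were tested, moved in both directions on day 3, with 6 higher and 9 lower in DTRADQ marrow, beside 8.8% and 14.1% of all genes. The list's median log2 change was -0.09. Higher were Tnfrsf10b, a death receptor for TRAIL, with 1.88 ± 0.46 CPM in DTRADQ and 0.595 ± 0.137 CPM in Con marrow (SD, n = 4 each; log2 change 1.66, SE 0.31, adjusted p = 2e-04), and the stress kinase gene Plk3, with 6.76 ± 1.58 CPM in DTRADQ and 2.69 ± 0.336 CPM in Con marrow (1.33, SE 0.23, adjusted p = 6.63e-05). The other 4 were the adenylate kinase gene Ak1 (1.28), the polo-like kinase gene Plk2 (1.24), the death receptor gene Fas (0.66) and Sesn2 (0.55), whose product restrains growth signalling under stress.

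The strongest fall was that of Ppm1d, which encodes the phosphatase WIP1 that dampens p53 signalling. It had 11.4 ± 1.52 CPM in DTRADQ and 36.3 ± 5.54 CPM in Con marrow on day 3 (log2 change -1.66, SE 0.22, adjusted p = 1.89e-06), and was not called without toxin or on days 1 and 2. Steap3, a ferrireductase that erythroid cells use for iron uptake, had 11.9 ± 1.22 CPM in DTRADQ and 30.4 ± 7.90 CPM in Con marrow (-1.36, SE 0.19, adjusted p = 2.92e-06). Psrc1 and Gtse1, both of which act on the microtubules of dividing cells, were lower by log2 changes of -1.05 and -0.47, and the DNA damage response gene Gadd45a (-0.87), Sesn1, Pidd1, the repair endonuclease gene Ercc5 and Ei24 made up the rest, at -0.87 to -0.42. The calls of Fas, Sesn2, Gtse1, Pidd1, Ercc5 and Ei24 were each lost when certain single day-3 libraries were left out (adjusted p = 0.05 to 0.201), those of Ercc5 and Ei24 also with DESeq2 size factors (0.0584 and 0.0561) or no filter (0.0907 and 0.108), and the other 9 calls held in each of these fits. The erythroid and cell division lists fell in the same libraries, and their part in these changes was not tested.

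On the earlier days few of the further targets were called. On day 1 Tnfrsf10b was higher (1.14, SE 0.34, adjusted p = 0.0482) and Ei24 lower (-0.64, SE 0.15, adjusted p = 0.01), beside 0.888% of all genes higher and 3.02% lower. The Tnfrsf10b call was lost without any 1 of the 8 libraries compared, with no filter (adjusted p = 0.117) and under the replicate block (1.16, adjusted p = 0.051), and that of Ei24 without Con replicate 3 (adjusted p = 0.0665). On day 2 Plk3 was higher (0.91, SE 0.24, adjusted p = 0.0169) and Steap3 lower (-1.02, SE 0.19, adjusted p = 0.000621), beside 4.4% and 4.12%. The Plk3 call was lost without DTRADQ replicate 3 (adjusted p = 0.0591) or Con replicate 4 (adjusted p = 0.0757).

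Without toxin Sesn1 (0.76), Pmaip1 (1.20) and Apaf1 (0.31) were higher in DTRADQ marrow, with adjusted p of 0.00113, 0.00281 and 0.0429. These were 3 of the 30 tested, with 0 lower, beside 12.7% of all genes higher and 14.4% lower. Fitted on the untreated libraries alone, the same 3 changes had adjusted p of 0.104, 0.143 and 0.28. Pmaip1, which encodes the cell death inducer NOXA, was not called without untreated Con replicates 3 and 4 (0.88, adjusted p = 0.066). Apaf1, the scaffold of the apoptosome, lost its call without untreated DTRADQ replicate 1 or 4 and without Con replicate 1, 2 or 3 (adjusted p = 0.0559 to 0.162).

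**Figure D4:**
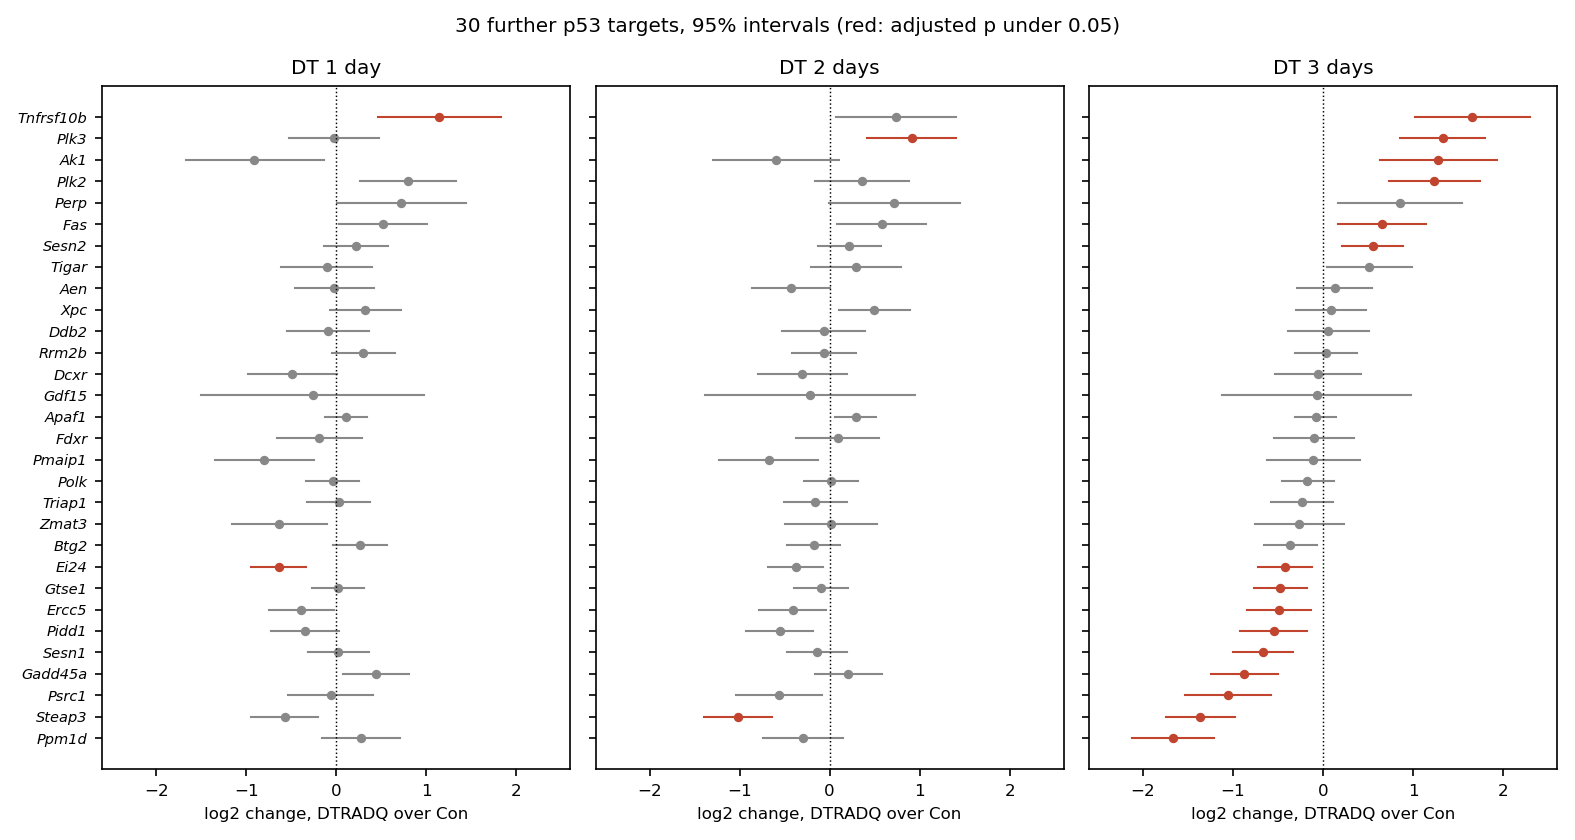
Log2 change of 30 further p53 targets, DTRADQ over Con, after 1, 2 and 3 days of DT, ordered by the day-3 value; points are edgeR estimates, bars 95% intervals, and red marks an adjusted p under 0.05. There are 2 red points on day 1, 2 on day 2 and 15 on day 3, of which 6 lie above 0 and 9 below.

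The p53 gene itself, Trp53, was not called between the genotypes on any day. It averaged 93.3 ± 11.1 CPM in untreated DTRADQ and 116 ± 28.5 CPM in untreated Con marrow (log2 change -0.32, SE 0.13, adjusted p = 0.0666), and the change was called without untreated Con replicates 3 and 4 (-0.49, adjusted p = 0.00298) or by DESeq2 (-0.33, adjusted p = 0.0255). On day 3 it averaged 97.0 ± 3.22 CPM in DTRADQ and 91.9 ± 5.22 CPM in Con marrow (0.08, SE 0.13, adjusted p = 0.711). Mdm4, a partner of MDM2 that restrains p53, was higher without toxin (0.46, adjusted p = 0.0178), but not without untreated Con replicates 3 and 4 (0.16, adjusted p = 0.426). Its call was also lost in a fit of the untreated libraries alone (0.47, adjusted p = 0.285).

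Of 18 p53 regulators 14 were tested, and on day 3 1 was higher and 3 lower, beside 8.8% and 14.1% of all genes. Lower were Usp7, a deubiquitinase of MDM2 and p53 (-1.17, adjusted p = 0.000303), and the checkpoint kinase genes Chek2 (-0.75, adjusted p = 0.000607) and Chek1 (-0.70, adjusted p = 0.00149). Higher was Ppp1r13b, a p53 cofactor (0.55, adjusted p = 0.0429). That call did not survive leaving out DTRADQ replicate 2 or 4 or Con replicate 1, 2 or 3, or dropping the filter. On days 1 and 2 none of the 14 was called by edgeR or DESeq2, with 1 and 2 at an unadjusted p under 0.05.

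Relatives of the cell cycle and cell death members were looked at as lists of CDK inhibitors and of the BCL2 family. Of 5 CDK inhibitor genes 4 were tested. Between the genotypes, 1, 0, 0 and 0 were called higher after 0, 1, 2 and 3 days, and 2, 1, 1 and 2 lower. Over all genes, 12.7%, 0.888%, 4.4% and 8.8% were called higher on these days, and 14.4%, 3.02%, 4.12% and 14.1% lower. Cdkn1c, which encodes the inhibitor p57, was lower in DTRADQ marrow on every day, by log2 changes of -1.31, -1.28, -2.12 and -2.06 after 0, 1, 2 and 3 days (adjusted p = 0.00112, 0.019, 9.24e-05 and 2e-05). It averaged 0.656 ± 0.0925 CPM in DTRADQ and 2.74 ± 0.418 CPM in Con marrow on day 3. The untreated change was -0.51 without untreated Con replicates 3 and 4 (adjusted p = 0.236), and the day-1 call was lost without DTRADQ replicate 4 (adjusted p = 0.0679) or Con replicate 3 (adjusted p = 0.0676). Cdkn2c was lower on day 3 (-1.13, adjusted p = 7.33e-05) and without toxin (-0.60, adjusted p = 0.0227), where Cdkn1b was higher (1.42, adjusted p = 3.61e-05). The untreated Cdkn2c change was -0.25 without untreated Con replicates 3 and 4 (adjusted p = 0.484). Fitted on the untreated libraries alone, the changes of Cdkn1b, Cdkn1c and Cdkn2c had adjusted p of 0.104, 0.108 and 0.202.

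In the BCL2 family, of which 11 of 12 were tested, 1, 0, 2 and 1 genes were called higher after 0, 1, 2 and 3 days. Called lower were 0, 1, 0 and 0, beside the same shares of all genes. Bok, a relative of Bax, was higher on days 2 and 3 (1.52 and 1.98, adjusted p = 0.00774 and 3.31e-05). It had 3.97 ± 0.715 CPM in DTRADQ and 1.00 ± 0.225 CPM in Con marrow on day 3. The survival gene Bcl2 was lower on day 1 (-1.13, SE 0.14, adjusted p = 1.21e-06), with 9.25 ± 1.34 CPM in DTRADQ and 20.3 ± 2.86 CPM in Con marrow. Bcl2l1, which encodes BCL-XL, was higher without toxin (1.04, adjusted p = 0.00143) and on day 2 (0.93, adjusted p = 0.0112). Its untreated call was lost without untreated Con replicates 3 and 4 (0.68, adjusted p = 0.0636) and in a fit of the untreated libraries alone (adjusted p = 0.121).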

How the data were processed

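RNA of whole femur marrow from 32 mice was sequenced from Clontech SMARTer libraries, per the labels' protocols. Reads were handled with STAR 2.0.4b, featureCounts 1.45 of Subread, and bcl2fastq on GRCm38, per the submitters' processing notes; for the annotation release and the strand setting nothing is given in those notes. The authors deposited a raw read count per gene beside CPM and RPKM values in each table, per the file headers; the deposited CPM and RPKM columns equal the counts over the table's total, and over gene length, and served only for that check.

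Counts were analysed in R 4.3.3 with edgeR 4.0.16 (filterByExpr with a minimum count of 10, leaving 14527 genes; TMM scaling; glmQLFit and two-sided glmQLFTest on 1 model of 8 group means; 13 contrasts; Benjamini-Hochberg within each, threshold 0.05), after a check on simulated data. Standard errors are the absolute log2 change over the square root of F, and intervals use t quantiles at 95%. DESeq2 1.42.0 was an alternative. RPKM printed here were recomputed from the TMM-scaled values. Symbols matched 97.3% of gene IDs. None of the 8 genes overlaps another annotated gene. No library was a copy of another of its group.

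The 8 genes, the gene lists, how further genes were picked and the setting aside of untreated Con replicates 3 and 4 were chosen with earlier results of these data known; the settings for the other named genes were added after seeing the data. Named besides the 8 were Trp53, Mdm4, Ppm1d and, per list and day, the up to 4 (p53 targets, regulators) or 3 (BCL2 family, CDK inhibitors) calls with the smallest adjusted p; the remaining day-3 targets were named after their values were seen. Replicates are mice, and counting error sets a floor of 3 counts.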

Additional observations from a re-analysis of the deposited data

Results flagged for a closer look

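Of 56 sets of 4 libraries looked at (7 genes in 8 groups), 2 held a library whose gap to its nearest neighbour took most of the group's range, about what chance gives at 1 in 20. Cdkn1a in untreated Con replicate 4 stood at 11.9 CPM, above 8.57 to 8.77 CPM in the other 3 libraries; this library also had the lowest total and the highest share of counts in its top 10 genes. Ccng1 in day-1 DTRADQ replicate 4 stood at 26.6 CPM, below 30.5 to 31.0 CPM in the other 3.

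The genotype difference on day 3 differed from that without toxin, by edgeR's interaction term, for Cdkn1a (0.85 on the log2 scale, adjusted p = 0.0165) and Phlda3 (1.60, adjusted p = 0.0447). The Phlda3 term was lost without untreated Con replicates 3 and 4 (1.20, adjusted p = 0.181) and without 11 of the 16 single libraries it compares.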

How the results depend on the processing

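No member's change turned its direction together with a call under any setting run. Between the genotypes, the number of the 7 genes called on day 3 was 1 with no filter on low counts and 4 in a fit of only the day-3 libraries, against 2 in the fit of all libraries, and 0 to 2 when 1 library was left out. Without toxin it was 0 in a fit of only the untreated libraries, against 3, and 1 to 3 without 1 library (lowest without DTRADQ replicate 1). On day 2 it was 1 with DESeq2 or without untreated Con replicates 3 and 4 (Mdm2) and 1 in a fit of only the day-2 libraries (Trp53inp1), against 0, and it was 0 in every fit without 1 library on days 1 and 2. The interaction term was called for 1 gene on day 2 with DESeq2, against 0, and for 1 on day 3 with no filter, against 2; leaving out 1 library gave 0 to 1, 0 to 2 and 1 to 4 genes after 1, 2 and 3 days, with 4 reached without untreated Con replicate 1 (Cdkn1a and Phlda3 higher, Trp53inp1 at -0.71, Bax at 0.44). Within DTRADQ, Trp53inp1 was called on day 2 with DESeq2, under the replicate block and without untreated Con replicates 3 and 4 (1 gene each, against 0), and leaving out 1 library gave 0 to 1, 0 to 1 and 2 to 3 genes, the 1 on days 1 and 2 being Trp53inp1 without untreated DTRADQ replicate 1. Within Con, the count was 1 on day 1 and 1 on day 2, against 2 each, with no filter, in a fit of only the groups compared and without untreated Con replicates 3 and 4, and 1 on day 3 in a fit of only the groups compared, against 4; without 1 library it was 1 to 2, 1 to 3 and 2 to 3, with Bax lost on all 3 days without untreated Con replicate 3. Ccng1 on day 3 within Con was also lost with DESeq2 size factors (0.33, adjusted p = 0.0537).

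The labels do not say whether replicate numbers pair the libraries. Deviations of same-numbered libraries from their group means correlated weakly, at a mean of 0.024 to 0.09. Yet 21 of 32 libraries correlated best with their own number among the 4 numbers, a hint of shared structure from the data and not from the design. Under the replicate block the day-3 changes were 0.55 for Cdkn1a (adjusted p = 0.0209) and 0.96 for Phlda3 (adjusted p = 0.0207). Among the members and the named genes tested under it, the block changed the calls of Trp53inp1 and Tnfrsf10b only. Trp53inp1 was gained on day 2 within DTRADQ (0.48, adjusted p = 0.03), and Tnfrsf10b was lost on day 1 between the genotypes (1.16, adjusted p = 0.051). Of the further p53 targets, 2 were then higher and 1 lower on day 2, against 1 and 1. On day 3, 6 were higher and 10 lower, against 6 and 9. Of the p53 regulators, 2 were higher and 3 lower on day 3, against 1 and 3. Over all genes the block raised the count from 567 to 667 on day 1 and from 1238 to 1579 on day 2. Over all genes the counts depended most on the untreated Con group and on the libraries that share a fit. Without toxin 3944 genes were called in the fit of all libraries, 1875 without untreated Con replicates 3 and 4, and 0 of 13308 by edgeR in a fit of only the untreated libraries (2940 at an unadjusted p under 0.05). On days 1, 2 and 3 the counts between the genotypes were 567, 1238 and 3330, against 940, 2621 and 5138 in fits of only the groups compared and 1337, 2896 and 5023 without those replicates. Further p53 targets called on day 2 numbered 2, against 6 and 7 in the same alternatives, and on day 3 they numbered 18 without those replicates, against 15. Depth limits Phlda3, Bbc3 and Eda2r most.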
